A study of Mus musculus with 69 samples.

Results

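The genes described here are the mouse Nduf genes, which encode most of the nuclear subunits of respiratory complex I and several factors that assemble it. They were found by a rule on names: every probe set whose single annotated gene symbol begins with Nduf was a member. The rule returned 75 probe sets of 42 genes, out of 45037 probe sets for transcripts on the array and 17097 genes that had a probe set with a single symbol. Of the 75, 72 passed the filter on low signal and were tested among 26755 probe sets, and each of the 42 genes kept at least 1. The 3 dim probe sets, 1 each for Ndufa12, Ndufb4 and Ndufs4, belong to genes with other probe sets among the 72. By role, the members are 6 core subunits (12 probe sets), 27 accessory subunits (49 of 52 probe sets tested), 7 assembly factors (9 probe sets), and the pair Ndufa4 and Ndufa4l2 (1 probe set each). The only Ndufs5 sequence that carried a single symbol was its transcribed pseudogene Ndufs5-ps.

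All animals were awake adult male CD-1 mice of 20 to 35 g, an outbred stock, and the heart was the tissue measured. Potassium cyanide (KCN, 8.0 mg/kg under the skin) was compared with saline of the same volume at 1, 2, 4, 8 and 24 h. Hydrogen cyanide gas (HCN, 327 ppm through the nose only) was compared with air at 1, 2, 4 and 24 h. Each of the 18 groups held 4 arrays, except KCN 4 h, Saline 2 h and Saline 4 h with 3, which makes 69 arrays. The labels call them biological replicates.

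Complex I, or NADH:ubiquinone oxidoreductase, is the entry point for electrons from NADH into the mitochondrial respiratory chain and pumps protons as it passes them to ubiquinone. Its catalytic core is made partly by the mitochondrial genome and partly by nuclear genes (Ndufs and Ndufv), a shell of accessory subunits (mostly Ndufa, Ndufb and Ndufc) stabilises it, and the Ndufaf proteins help to build it without staying in it. Cyanide acts further down the chain, on cytochrome c oxidase, and heart muscle, dense in mitochondria, carries a large amount of both enzymes.

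Values are log2 signals as deposited, and a change is the mean of the cyanide group minus the mean of its own control group. A probe set was called changed when limma's moderated test, run on all 26755 probe sets, gave a Benjamini-Hochberg adjusted p below 0.05. The shares of all tested probe sets called in the same direction are given beside the members' counts. The level of one probe set is not set against that of another, since probes bind with different strength, and HCN and KCN levels are not set against each other, since the bright end of the arrays differed by route (median 95th percentile of 9.51 in inhalation arrays and 9.24 in injection arrays). In whole heart, fewer cells of a type and less RNA per cell cannot be told apart.

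Heart muscle genes were bright in every group: the summed level of the 6 cardiomyocyte markers tested stayed between 15.4 and 15.8 on all arrays. Single markers of the 6 were called at HCN 2 h (Tnnt2 0.17 and Tnni3 -0.096), at KCN 8 h (Pln -0.19) and at HCN 24 h (Pln -0.18). Markers of neighbouring tissue did not stay even. The summed level of 4 lung epithelial markers was 12.2 to 12.9 in KCN 1 h hearts and 4.84 to 4.95 in Saline 1 h hearts, with 2 of the 4 called higher; in the other comparisons none of the 4 was called, although single arrays ranged from 4.74 to 13.8. Of the fat markers none was called, but Adipoq read 2.15 to 2.46 higher and Ucp1 1.88 to 3.72 higher on the log2 scale over the 5 KCN comparisons. Retn read 0.60 to 1.41 higher and Cidea 0.45 to 0.97 higher. The fat markers did not all rise: Lep changed by -0.06 to 0.45 and Ppargc1b by -0.24 to 0.23. At HCN 2 h, where most Nduf calls lie, 2 of 4 endothelial markers were called lower (Pecam1 -1.20 and Kdr -0.70), and their list's summed level was 8.98 to 9.53 in HCN hearts and 9.55 to 9.73 in Air hearts. There 2 of 5 macrophage markers were called higher (Mrc1 0.57 and Adgre1 0.56; summed level 8.97 to 9.40 in HCN hearts and 8.81 to 9.11 in Air hearts), and of 4 fibroblast markers 1 was called higher (Pdgfra 0.66) and 1 lower (Tcf21 -1.21; summed level 12.4 to 12.6 in HCN hearts and 12.5 in Air hearts). At KCN 24 h 2 macrophage markers (Cd68 0.76 and Csf1r 0.63) and 1 endothelial marker (Tie1 0.86) were called higher. At HCN 24 h Pecam1 (-0.94), Csf1r (-0.58) and Tcf21 (-0.75) were called lower and Cd163 (0.71) higher. At HCN 4 h Tcf21 (-1.23) was called lower and Pdgfra (0.86) higher, and at KCN 2 h Kdr (-0.68) and Tcf21 (-1.06) were called lower. The muscle gene Ckm was called lower at HCN 2 h (-0.28) and HCN 24 h (-0.34). The actin probe sets at the 3′ and 5′ ends of the transcript, a common gauge of RNA integrity, were furthest apart in HCN 2 h hearts (log2 difference 1.22 ± 0.61, against 0.45 ± 0.14 in Air 2 h hearts; SD, n = 4 each) and in HCN 24 h hearts (0.98 ± 0.25, against 0.39 ± 0.04 in Air 24 h hearts). After KCN the order was the other way round at 1 h (0.48 ± 0.08 in KCN hearts and 0.84 ± 0.17 in saline hearts), at 4 h (0.59 ± 0.03 in KCN hearts and 0.86 ± 0.31 in saline hearts; n = 3 each) and at 24 h (0.47 ± 0.13 in KCN hearts and 0.88 ± 0.09 in saline hearts). The part of these measures in the results below was not tested except where a value is given.

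Across the 9 comparisons the median change of the Nduf genes stayed near 0, and single probe sets were called in both directions. The median change of the 72 probe sets lay between -0.05 (HCN at 2 h) and 0.02 (KCN at 24 h), against medians between -0.04 and 0.04 for all tested probe sets. At least 60 of the 72 changed by less than 0.3 in each comparison. Of 61 calls in all, 6 reached 1.5-fold, and 4 of those 6 came from a single probe set of Ndufab1. No call was made in any of the 9 comparisons for 29 probe sets, 30 had 1 call, 9 had 2, and 4 had 3 or more, and 11 were called in both directions. The same counts over all tested probe sets are not given here, so these cannot be called high or low.

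After KCN, calls among members were few until 24 h. At 1 h, 2 members rose, where 1.57% of all probe sets rose, and 3 fell, where 2.53% of all fell. At 2 h none rose (3.3% of all) and 2 fell (3.3% of all). At 4 h none rose (1.21% of all) and 3 fell (1.05% of all). At 8 h no member was called, where 0.138% of all rose and 0.198% fell by the adjusted p. An unadjusted p below 0.05 by limma was seen in 25 members. The share of all probe sets at that unadjusted cut is not given here. At 24 h 8 of 72 rose and 4 fell, which is 16.7% of the members in both directions, where 6.79% of all rose and 5.14% fell.

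After HCN, nearly all calls were made at 2 h. At 1 h none rose (1.38% of all) and 2 fell (1.3% of all). At 2 h 14 rose, where 8.8% of all rose, and 19 fell, where 16.5% of all fell, so that 45.8% of the members were called. At 4 h no member was called, where 2.87% of all rose and 4.48% fell, and 5 members had an unadjusted p below 0.05. The share of all probe sets at the unadjusted cut is not given here either. At 24 h 2 rose (5.08% of all) and 2 fell (9.25% of all). The HCN 2 h count varied with the fit. It was 7 with the actin measure as a covariate, 8 without HCN 2 h replicates 1 and 2, and 19 without replicate 2 alone. It was 6 when only the HCN and air arrays of that time were fitted. The shares of all probe sets called in these fits are not given here. Whether the members lost calls more than the array did therefore cannot be read from these counts. The actin measure was 0.64 to 1.95 in HCN 2 h hearts and 0.32 to 0.65 in Air 2 h hearts. Its part therefore cannot be told apart from that of the exposure, and the fits without it as a covariate held fewer arrays.

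**Figure D1:**
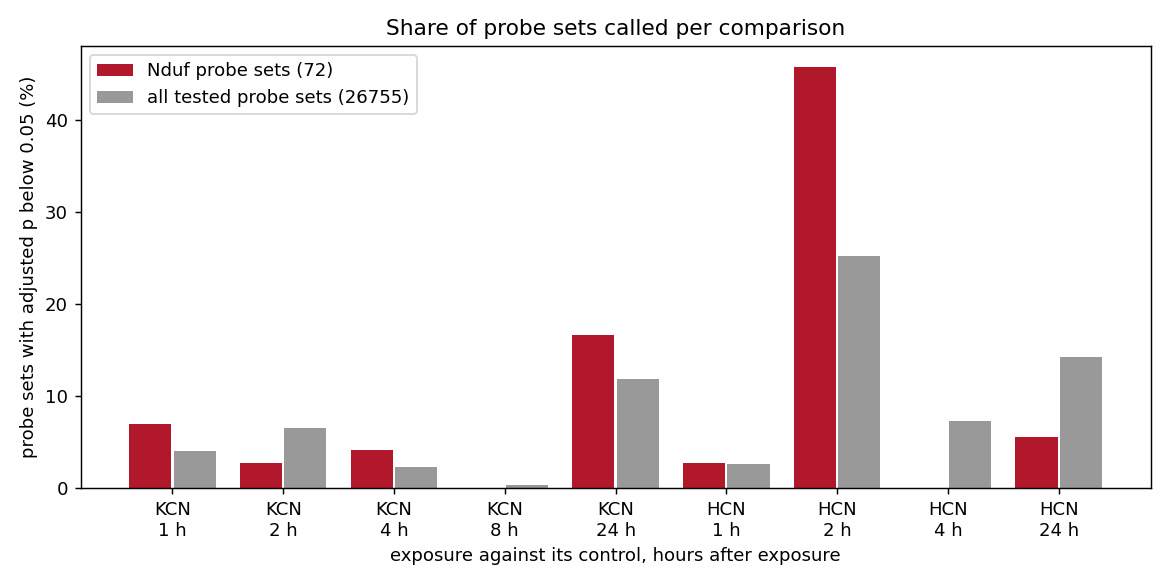
Share of probe sets with an adjusted p below 0.05 (%), for the 72 Nduf probe sets (red) and all 26755 tested probe sets (grey), in each cyanide group against its control, by hours after exposure. The Nduf share stands highest at HCN 2 h (45.8%), and it is 0 at KCN 8 h and HCN 4 h.

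A further check asked which of the 61 calls kept their direction and their side of the threshold under every alternative run for them, between 12 and 15 each, counting each array left out in turn. It found 10, of which 6 belong to KCN 24 h, 3 to HCN 2 h and 1 to KCN 1 h. They are Ndufab1 (1428160_PM_at) at KCN 1 h, Ndufab1, Ndufa3 (both probe sets), Ndufa4l2, Ndufaf4 (1427997_PM_at) and Ndufa12 (1455806_PM_x_at) at KCN 24 h, and Ndufa8, Ndufb5 (1448589_PM_at) and Ndufb11 (1416057_PM_at) at HCN 2 h. Their changes were larger than the spread between replicates in each of those settings, with a highest adjusted p of 0.0424 by limma.

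**Figure D2:**
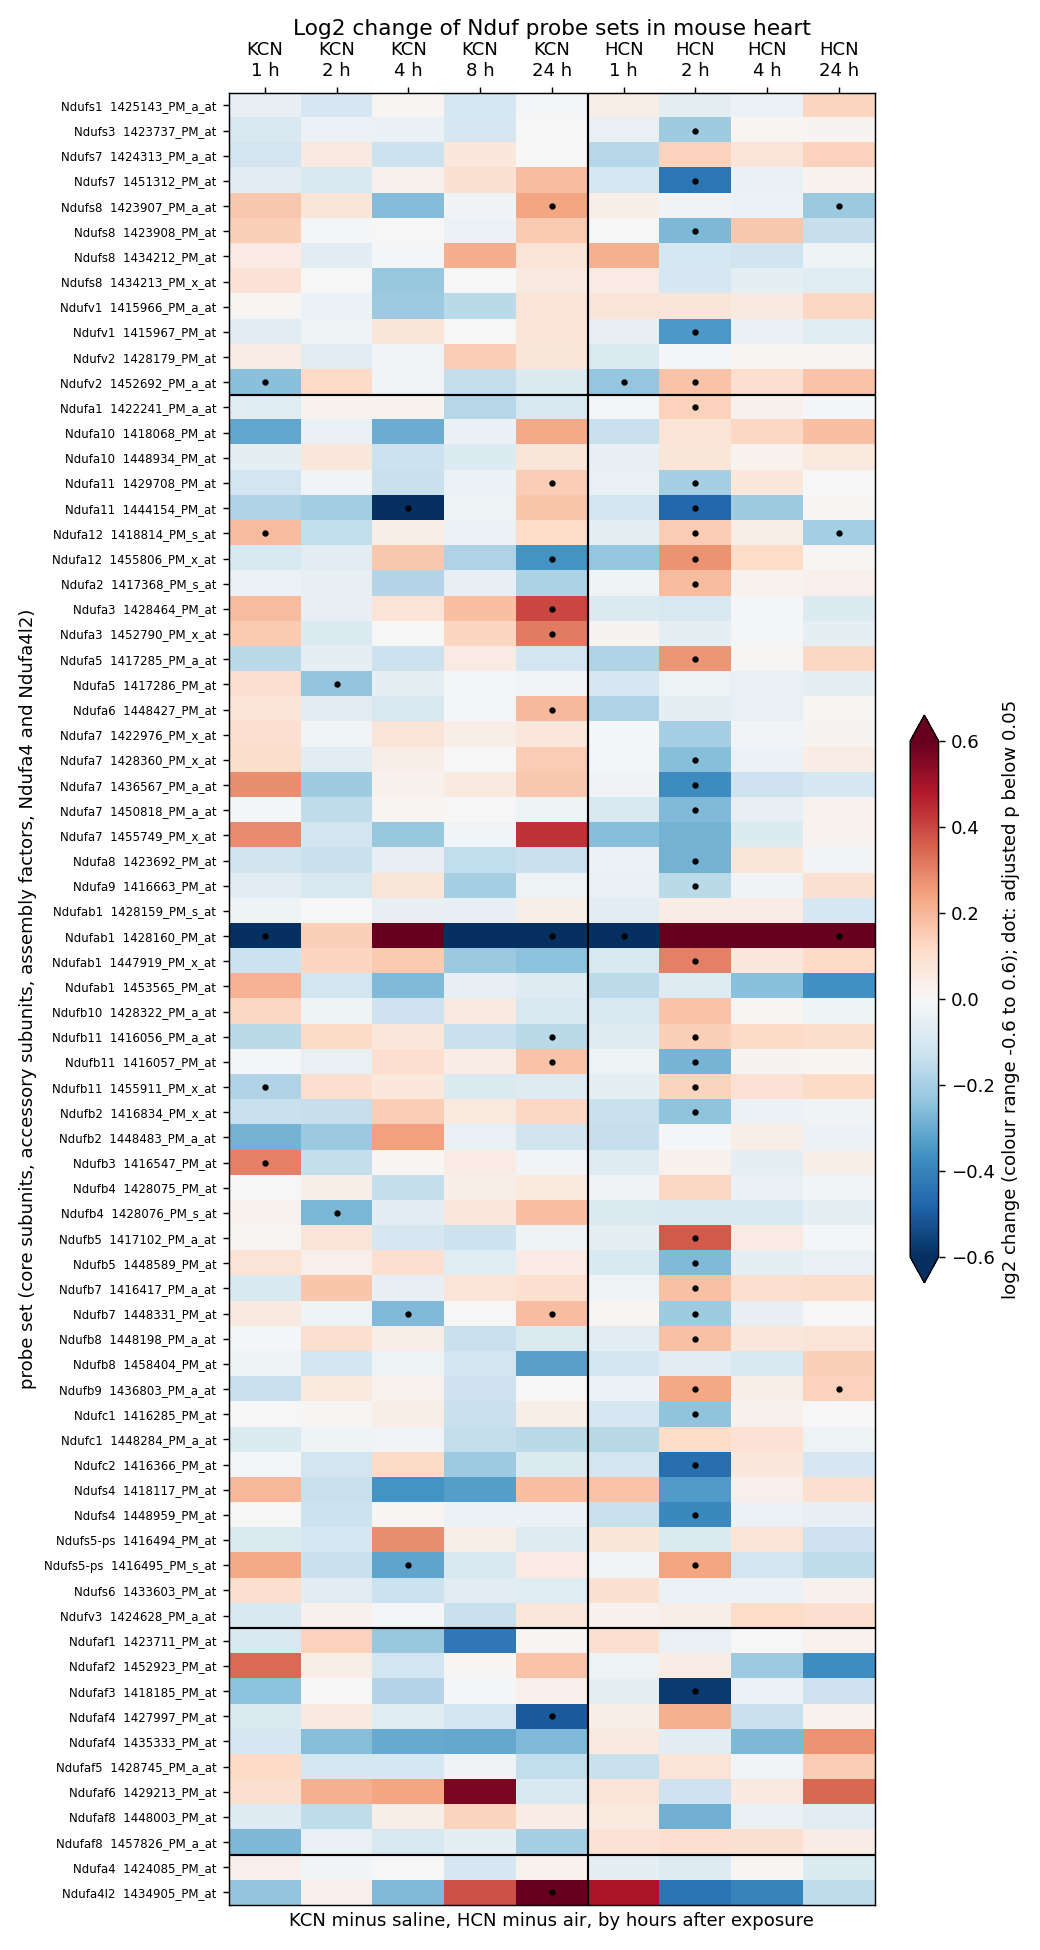
Log2 change of the 72 tested Nduf probe sets (rows, ordered as core subunits, accessory subunits, assembly factors, Ndufa4 and Ndufa4l2) in 9 comparisons (columns), red for higher and blue for lower in the cyanide group, with a dot where the adjusted p is below 0.05. Most cells are pale, the HCN 2 h column carries 33 of the dots, and the row of Ndufab1 1428160_PM_at goes past the colour range of -0.6 to 0.6.

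Among the core subunits, which hold the flavin and the iron-sulphur clusters that carry electrons, HCN 2 h gave 5 calls of 12 probe sets, 1 higher (8.8% of all) and 4 lower (16.5% of all). Ndufs7, the subunit with the last cluster before ubiquinone, had log2 signals of 11.79, 11.28, 11.92 and 11.96 in HCN 2 h hearts, against 12.15, 12.27, 12.22 and 12.05 in Air 2 h hearts, on probe set 1451312_PM_at. The groups did not overlap and replicate 2 was lowest (change -0.43 ± 0.07 SE, adjusted p = 2.78e-06 by limma). The second Ndufs7 probe set, 1424313_PM_a_at, read 12.46, 12.42, 12.22 and 12.34 in HCN 2 h hearts, against 12.22, 12.24, 12.22 and 12.20 in Air 2 h hearts, a change of 0.14 that was not called (adjusted p = 0.0785). The readings of this gene thus had opposite signs on the same arrays.

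Ndufv1, which binds NADH and the flavin, showed the same split. Probe set 1415967_PM_at gave 11.69, 11.52, 11.99 and 11.99 in HCN 2 h hearts, against 12.15, 12.13, 12.18 and 12.10 in Air 2 h hearts, with every HCN array below every air array (-0.34 ± 0.06 SE, adjusted p = 5.93e-05). Probe set 1415966_PM_a_at changed by 0.07 and was not called (adjusted p = 0.638). Ndufs3, a core subunit of the arm that faces the matrix, read 11.88, 11.76, 12.10 and 12.09 in HCN 2 h hearts, against 12.11, 12.18, 12.28 and 12.11 in Air 2 h hearts (-0.21 ± 0.05 SE, adjusted p = 0.00117), with all air arrays above all HCN arrays. Ndufs8 fell by 0.27 on 1423908_PM_at, a call lost without HCN 2 h replicate 2. Ndufs1, the largest nuclear-encoded core subunit, was 11.93, 11.80, 11.97 and 11.86 in HCN 2 h hearts, against 11.89, 11.98, 11.99 and 11.92 in Air 2 h hearts, and the groups overlapped (-0.05, adjusted p = 0.472). The calls of Ndufs7, Ndufv1 and Ndufs3 were lost with the actin covariate.

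Ndufv2, the partner of Ndufv1 in the NADH-binding module, was called 3 times on 1452692_PM_a_at. It read 11.77, 11.77, 11.75 and 11.77 in KCN 1 h hearts, against 12.11, 12.01, 12.06 and 11.90 in Saline 1 h hearts, with no overlap (-0.25 ± 0.06 SE, adjusted p = 0.0089). It also fell in HCN 1 h hearts (11.81, 11.84, 11.98 and 11.90, against 12.37, 12.01, 11.96 and 12.13 in Air 1 h hearts; -0.23 ± 0.06 SE, adjusted p = 0.0201), where the groups overlapped and the call was lost without HCN 1 h replicate 1 or 2 or Air 1 h replicate 1 or 4. At HCN 2 h it rose by 0.17 (adjusted p = 0.0328), a call lost without HCN 2 h replicate 1 or 2 or Air 2 h replicate 2. The other Ndufv2 probe set, 1428179_PM_at, had no call in any comparison.

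Ndufs8, which carries clusters on the way to ubiquinone, was the only core subunit called at 24 h, and its sign differed by route on 1423907_PM_a_at. It was 11.82, 11.81, 11.95 and 11.87 in KCN 24 h hearts, against 11.54, 11.70, 11.62 and 11.64 in Saline 24 h hearts (0.24 ± 0.08 SE, adjusted p = 0.0349). It was 12.01, 12.15, 12.10 and 12.21 in HCN 24 h hearts, against 12.42, 12.30, 12.35 and 12.28 in Air 24 h hearts (-0.22 ± 0.08 SE, adjusted p = 0.044). Neither pair of groups overlapped, and the test of the difference between the routes gave -0.46 (adjusted p = 0.00171). Single arrays decide both calls: the KCN call was kept in 2 of the 8 fits that left out 1 array (KCN 24 h replicate 2 or Saline 24 h replicate 2), and the HCN call in 1 of 8 (HCN 24 h replicate 4).

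The accessory subunits gave 9 calls of 49 probe sets at KCN 24 h, 6 higher (6.79% of all) and 3 lower (5.14% of all), and 27 at HCN 2 h, 13 higher (8.8% of all) and 14 lower (16.5% of all). The largest changes belonged to Ndufab1, the mitochondrial acyl carrier protein, which sits in both arms of complex I and also serves lipoic acid and iron-sulphur cluster synthesis. Probe set 1428160_PM_at read 6.74, 6.33, 6.07 and 6.10 in KCN 1 h hearts, against 9.38, 9.34, 9.27 and 9.20 in Saline 1 h hearts (-2.98 ± 0.29 SE, 0.126 times the control, adjusted p = 6.99e-11). It read 6.21, 6.21, 6.76 and 6.53 in KCN 24 h hearts, against 10.19, 9.71, 8.84 and 8.27 in Saline 24 h hearts (-2.83 ± 0.29 SE, adjusted p = 1.4e-10). Both times the cyanide arrays lay far below every control array.

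At 2, 4 and 8 h this probe set was not called. It was 6.43, 6.32, 6.25 and 6.84 in KCN 2 h hearts, against 6.08, 6.38 and 6.48 in Saline 2 h hearts. It was 7.28, 7.65 and 7.83 in KCN 4 h hearts, against 6.29, 6.87 and 6.61 in Saline 4 h hearts. It was 6.38, 6.38, 7.06 and 6.74 in KCN 8 h hearts, against 6.55, 6.78, 8.54 and 7.98 in Saline 8 h hearts. So all KCN arrays at all times lay between 6.07 and 7.83, while the saline arrays spanned 6.08 to 10.19, and the test of change over time within the saline groups gave an adjusted p of 1.3e-13. The actin difference averaged 0.84, 0.42, 0.86, 0.45 and 0.88 in saline hearts at 1, 2, 4, 8 and 24 h. The summed lung epithelial markers, given above for 1 h, overlapped at 24 h (4.89 to 13.0 in KCN hearts, against 4.74 to 11.1 in saline hearts). The part of either measure in this probe set was not tested.

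After HCN, 1428160_PM_at was 5.73, 6.70, 6.66 and 6.82 in HCN 1 h hearts, against 7.99, 7.36, 7.54 and 7.30 in Air 1 h hearts (-1.07 ± 0.29 SE, adjusted p = 0.0233). It was 7.27, 7.04, 7.05 and 6.94 in HCN 24 h hearts, against 6.45, 6.13, 5.70 and 6.52 in Air 24 h hearts (0.88 ± 0.29 SE, adjusted p = 0.0285). Neither pair of groups overlapped, and the signs are opposite. The 1 h call was lost without HCN 1 h replicate 1 or Air 1 h replicate 1 or 3, and the 24 h call without HCN 24 h replicate 1, 2 or 3 or Air 24 h replicate 2 or 3. The other 3 Ndufab1 probe sets were called once, when 1447919_PM_x_at rose by 0.30 at HCN 2 h (adjusted p = 0.00686), a call lost without HCN 2 h replicate 2. None shared the large falls after KCN. On 1428159_PM_s_at, 1447919_PM_x_at and 1453565_PM_at the changes were -0.03, -0.13 and 0.21 at KCN 1 h. At KCN 24 h they were 0.04, -0.24 and -0.08. A near-identical pseudogene copy (Ndufab1-ps) makes the source of the Ndufab1 signals uncertain.

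**Figure D3:**
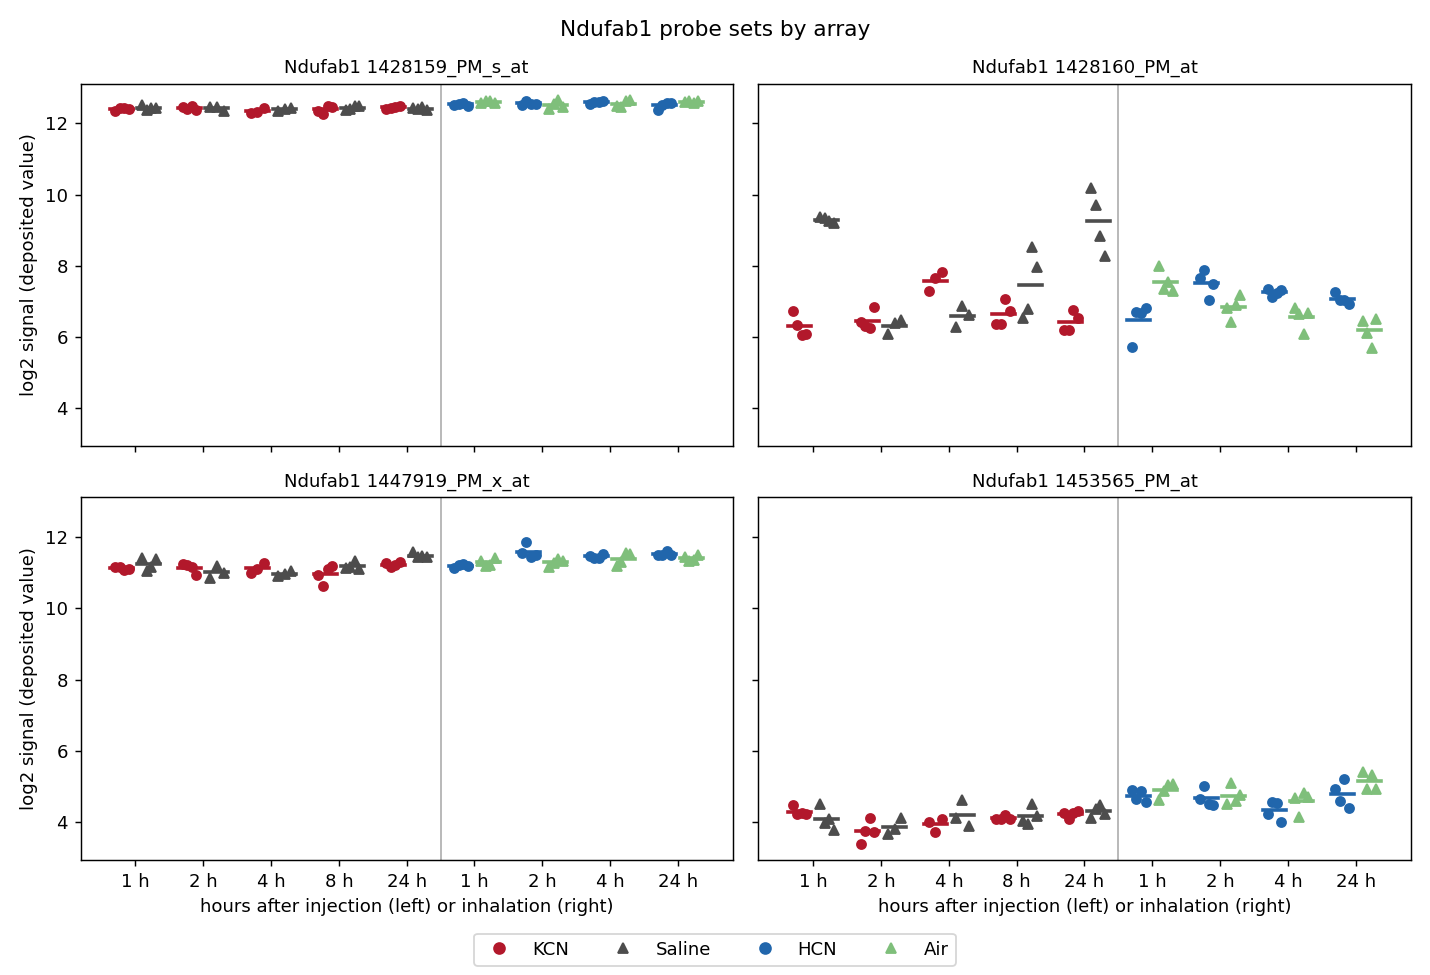
Log2 signal of the 4 tested Ndufab1 probe sets on each array (points) with group means (bars), by hours after KCN or saline injection and after HCN or air inhalation. Probe set 1428160_PM_at is high in Saline 1 h and Saline 24 h hearts (8.27 to 10.19) and below 8 in all cyanide groups, and the other 3 probe sets show no such split.

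Ndufa3, a small membrane-arm subunit, was the one gene with both of its probe sets called in the same direction at KCN 24 h. On 1428464_PM_at it read 11.86, 11.98, 11.87 and 11.96 in KCN 24 h hearts, against 11.35, 11.44, 11.67 and 11.61 in Saline 24 h hearts (0.40 ± 0.07 SE, 1.32-fold, adjusted p = 9.47e-05). On 1452790_PM_x_at it read 12.74, 12.65, 12.74 and 12.79 in KCN 24 h hearts, against 12.27, 12.36, 12.57 and 12.47 in Saline 24 h hearts (0.31 ± 0.06 SE, adjusted p = 0.000173). Every KCN array stood above every saline array on both. The Saline 24 h arrays were also lower than those of all other saline times on 1428464_PM_at (11.71 or more), and the saline groups differed over time (adjusted p = 1.38e-06). Averaged over the 5 times, KCN against saline gave 0.16 and 0.10 (adjusted p = 0.00131 and 0.0107).

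Ndufa8, a subunit of the intermembrane face of the complex, was lower after HCN at 2 h: 11.88, 11.81, 11.83 and 11.95 in HCN hearts, against 12.08, 12.13, 12.30 and 12.10 in Air hearts, with no overlap (-0.28 ± 0.05 SE, adjusted p = 2.55e-05). It was also lower averaged over the 5 KCN times (-0.12 ± 0.02 SE, adjusted p = 0.000723), although no single KCN time was called, the changes lying between -0.15 and -0.05. Ndufa8 and Ndufa3 were among the 7 members called in the KCN average, 2 higher, where 5.07% of all probe sets rose, and 5 lower, where 4.45% fell. In the HCN average 3 members rose, where 7.4% of all rose, and 11 fell, where 14.1% fell, and this count was 1 with the actin covariate and 6 without HCN 2 h replicates 1 and 2.

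Ndufc2 and Ndufs4 were lower at HCN 2 h, and their 4 HCN arrays spread widely. Ndufc2, a membrane-arm subunit, was 10.73, 10.35, 11.02 and 11.11 in HCN hearts, against 11.22, 11.29, 11.35 and 11.15 in Air hearts (-0.45 ± 0.10 SE, adjusted p = 0.000399). Ndufs4, whose inherited loss is one cause of Leigh syndrome in people, was 10.62, 10.50, 10.99 and 10.94 in HCN hearts, against 11.05, 11.28, 11.26 and 11.001 in Air hearts on 1448959_PM_at (-0.38 ± 0.08 SE, adjusted p = 0.000337). In both genes, HCN replicates 1 and 2, which had the highest actin differences (1.49 and 1.95, against 0.79 and 0.64 in replicates 3 and 4), were the lowest arrays, and both calls were lost without these replicates or with the actin covariate. One probe set of Ndufb5, another membrane-arm subunit, was lower with little spread, at 11.95, 11.89, 11.98 and 12.04 in HCN hearts, against 12.21, 12.29, 12.29 and 12.13 in Air hearts on 1448589_PM_at (-0.27 ± 0.05 SE, adjusted p = 1.59e-05), and this call was kept in those fits, while the other Ndufb5 probe set was called higher (given below).

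Other accessory calls at HCN 2 h were spread over both directions. The largest rises after that of Ndufb5 below were those of Ndufab1 (given above), Ndufa12 (1455806_PM_x_at, 0.27 ± 0.09 SE, adjusted p = 0.0184) and Ndufa5 (1417285_PM_a_at, 0.26 ± 0.07 SE, adjusted p = 0.0039). Ndufa11 fell on 1444154_PM_at (-0.47 ± 0.16 SE, adjusted p = 0.0239) and on 1429708_PM_at (-0.20 ± 0.05 SE, adjusted p = 0.00256), and Ndufa7 on 3 of its 5 probe sets (-0.25, -0.26 and -0.38). Ndufa9, which lies beside the ubiquinone site, changed by -0.16 and Ndufb8, a membrane-arm subunit often used as a protein marker of the complex, by 0.17 on 1448198_PM_a_at. Of these, only Ndufa5 on 1417285_PM_a_at, Ndufa11 on 1429708_PM_at and Ndufa7 on 1450818_PM_a_at kept the call with each HCN 2 h and Air 2 h array left out in turn. Ndufa11 1444154_PM_at was lost without HCN 2 h replicate 3 or 4 or Air 2 h replicate 2 or 3, Ndufa9 without HCN 2 h replicate 1 or 2 or Air 2 h replicate 3, and Ndufb8 was kept only without HCN 2 h replicate 3 or Air 2 h replicate 4. Ndufa12 and Ndufa7 on 1436567_PM_a_at and 1428360_PM_x_at were lost without HCN 2 h replicate 2. Ndufa10 and Ndufs6, accessory subunits too, had no call in any of the 9 comparisons.

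The remaining accessory calls outside HCN 2 h ranged from -0.66 (Ndufa11 1444154_PM_at at KCN 4 h) to 0.30 (Ndufb3 at KCN 1 h). At KCN 1 h Ndufb3 read 11.10, 11.18, 11.07 and 11.04 in KCN hearts, against 10.94, 10.53, 10.74 and 10.97 in saline hearts (0.30 ± 0.07 SE, adjusted p = 0.00952), without overlap, a call lost when replicate 2 of KCN 1 h or 2 of Saline 1 h was left out. Ndufb11, a membrane-arm subunit, read 12.28, 12.38, 12.37 and 12.22 on 1455911_PM_x_at in KCN 1 h hearts, against 12.56, 12.51, 12.43 and 12.48 in Saline 1 h hearts (-0.18 ± 0.05 SE, adjusted p = 0.0133). The groups did not overlap, and the call was lost when replicate 4 of KCN 1 h or 1 of Saline 1 h was left out, under quantile normalization, with the actin covariate and when only these groups were fitted. At KCN 2 h Ndufa5 (1417286_PM_at) read 11.51, 11.42, 11.32 and 11.31 in KCN hearts, against 11.55, 11.61 and 11.73 in saline hearts (-0.24 ± 0.06 SE, adjusted p = 0.0162), a call lost when replicate 4 of KCN 2 h or 3 of Saline 2 h was left out. Ndufb4 (1428076_PM_s_at) fell by 0.27 at KCN 2 h (adjusted p = 0.0432), a call kept when KCN 2 h replicate 2 or Saline 2 h replicate 1 was left out and lost in the other 5 of 7 such fits. The near-identical copies Ndufb4b and Ndufb4c may share its probes. The other tested Ndufb4 probe set, 1428075_PM_at, did not share the fall at KCN 2 h (0.04, adjusted p = 0.773 by limma).

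At KCN 4 h, with 3 arrays in each group, the 3 calls were all lower. Ndufb7 (1448331_PM_at) read 11.70, 11.61 and 11.69 in KCN hearts, against 11.996, 11.90 and 11.92 in saline hearts (-0.27 ± 0.07 SE, adjusted p = 0.0391), a call kept only without Saline 4 h replicate 3. The pseudogene Ndufs5-ps (1416495_PM_s_at), whose probes may also bind Ndufs5, read 10.95, 11.38 and 11.34 in KCN hearts, against 11.50, 11.67 and 11.45 in saline hearts (-0.32, adjusted p = 0.035), a call lost without KCN 4 h replicate 1 or Saline 4 h replicate 1 or 2. The other Ndufs5-ps probe set, 1416494_PM_at, had the opposite sign at KCN 4 h (0.28, adjusted p = 0.144 by limma) and was not called. Ndufa11 (1444154_PM_at) was near the filter at 3.14, 3.04 and 3.32 in KCN hearts, against 4.32, 3.60 and 3.54 in saline hearts (-0.66, adjusted p = 0.039), and was kept only when replicate 3 of KCN 4 h or 3 of Saline 4 h was left out. No KCN array overlapped the saline arrays in any of the 3 calls. At KCN 24 h 2 of these genes were called in the other direction: Ndufb7 on the same probe set (0.19 ± 0.06 SE, adjusted p = 0.0465), kept only without KCN 24 h replicate 2, and Ndufa11 on 1429708_PM_at (0.15 ± 0.05 SE, adjusted p = 0.0448), kept only without KCN 24 h replicate 2 or Saline 24 h replicate 3. Ndufa6, an accessory subunit of the matrix arm, read 11.42, 11.33, 11.29 and 11.28 in KCN 24 h hearts, against 11.05, 11.13, 11.19 and 11.17 in Saline 24 h hearts (0.20 ± 0.06 SE, adjusted p = 0.0291). Its groups did not overlap, and leaving out replicate 1 or 2 of either group ended the call.

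At 24 h the Ndufa12 probe sets parted. Ndufa12 is an accessory subunit of the matrix arm, and a near-identical pseudogene copy makes its signal uncertain. On 1455806_PM_x_at it read 11.01, 11.20, 11.18 and 11.14 in KCN 24 h hearts, against 11.60, 11.43, 11.40 and 11.52 in Saline 24 h hearts (-0.36 ± 0.09 SE, adjusted p = 0.00384), with no overlap. There 1418814_PM_s_at changed by 0.11 and was not called (adjusted p = 0.212 by limma). At HCN 24 h 1455806_PM_x_at changed by 0.009 and was not called (adjusted p = 0.962). On 1418814_PM_s_at Ndufa12 was called at HCN 2 h (0.15, adjusted p = 0.0392, lost without HCN 2 h replicate 1 or 2 or Air 2 h replicate 4), at KCN 1 h (0.19, adjusted p = 0.0398, kept only when replicate 4 of KCN 1 h or 1 of Saline 1 h was left out) and at HCN 24 h (-0.21 ± 0.06 SE, adjusted p = 0.0076, lost without HCN 24 h replicate 1). Ndufb9, also an accessory subunit, read 12.84, 12.81, 12.86 and 12.77 in HCN 24 h hearts, against 12.65, 12.68, 12.64 and 12.75 in Air 24 h hearts (0.14, adjusted p = 0.0369), a call kept only without HCN 24 h replicate 4 or Air 24 h replicate 4.

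Of the 9 assembly-factor probe sets, 2 were called once each. Ndufaf3, which helps to build the arm that binds ubiquinone, read 8.50, 7.98, 8.92 and 9.19 in HCN 2 h hearts, against 9.15, 9.13, 9.38 and 9.22 in Air 2 h hearts (-0.57 ± 0.13 SE, 0.673 times the control, adjusted p = 0.00068). The groups overlapped through HCN replicate 4, and the call was lost without HCN replicates 1 and 2. Ndufaf4, a partner of Ndufaf3 in the same step, read 9.65, 9.63, 9.71 and 9.59 on 1427997_PM_at in KCN 24 h hearts, against 10.19, 10.20, 10.41 and 9.79 in Saline 24 h hearts (-0.50 ± 0.12 SE, adjusted p = 0.00212), with no overlap. Its second probe set, 1435333_PM_at, was lower in the average over the 5 KCN times (-0.25 ± 0.06 SE, adjusted p = 0.00257). Ndufaf1, Ndufaf2, Ndufaf5, Ndufaf6 and Ndufaf8 had no call in any of the 9 comparisons.

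Ndufa4, now counted as a subunit of cytochrome c oxidase, the enzyme that cyanide blocks, had no call, and its changes lay between -0.10 and 0.03. Its paralogue Ndufa4l2, known as a target of the hypoxia-inducible factor, read 6.55, 6.47, 6.47 and 6.97 in KCN 24 h hearts, against 5.39, 5.86, 5.51 and 5.97 in Saline 24 h hearts (0.93 ± 0.19 SE, 1.91-fold, adjusted p = 0.000593). All KCN arrays lay above all saline arrays. The Saline 24 h arrays were below the other saline arrays (6.12 to 6.99), and the saline groups differed over time (adjusted p = 0.000765). In HCN 24 h hearts it was 5.81, 6.0045, 5.9986 and 5.99, against 6.26, 5.98, 6.41 and 5.76 in Air 24 h hearts, with overlap and no call, and the difference between routes at 24 h was -1.09 (adjusted p = 0.00267).

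**Figure D4:**
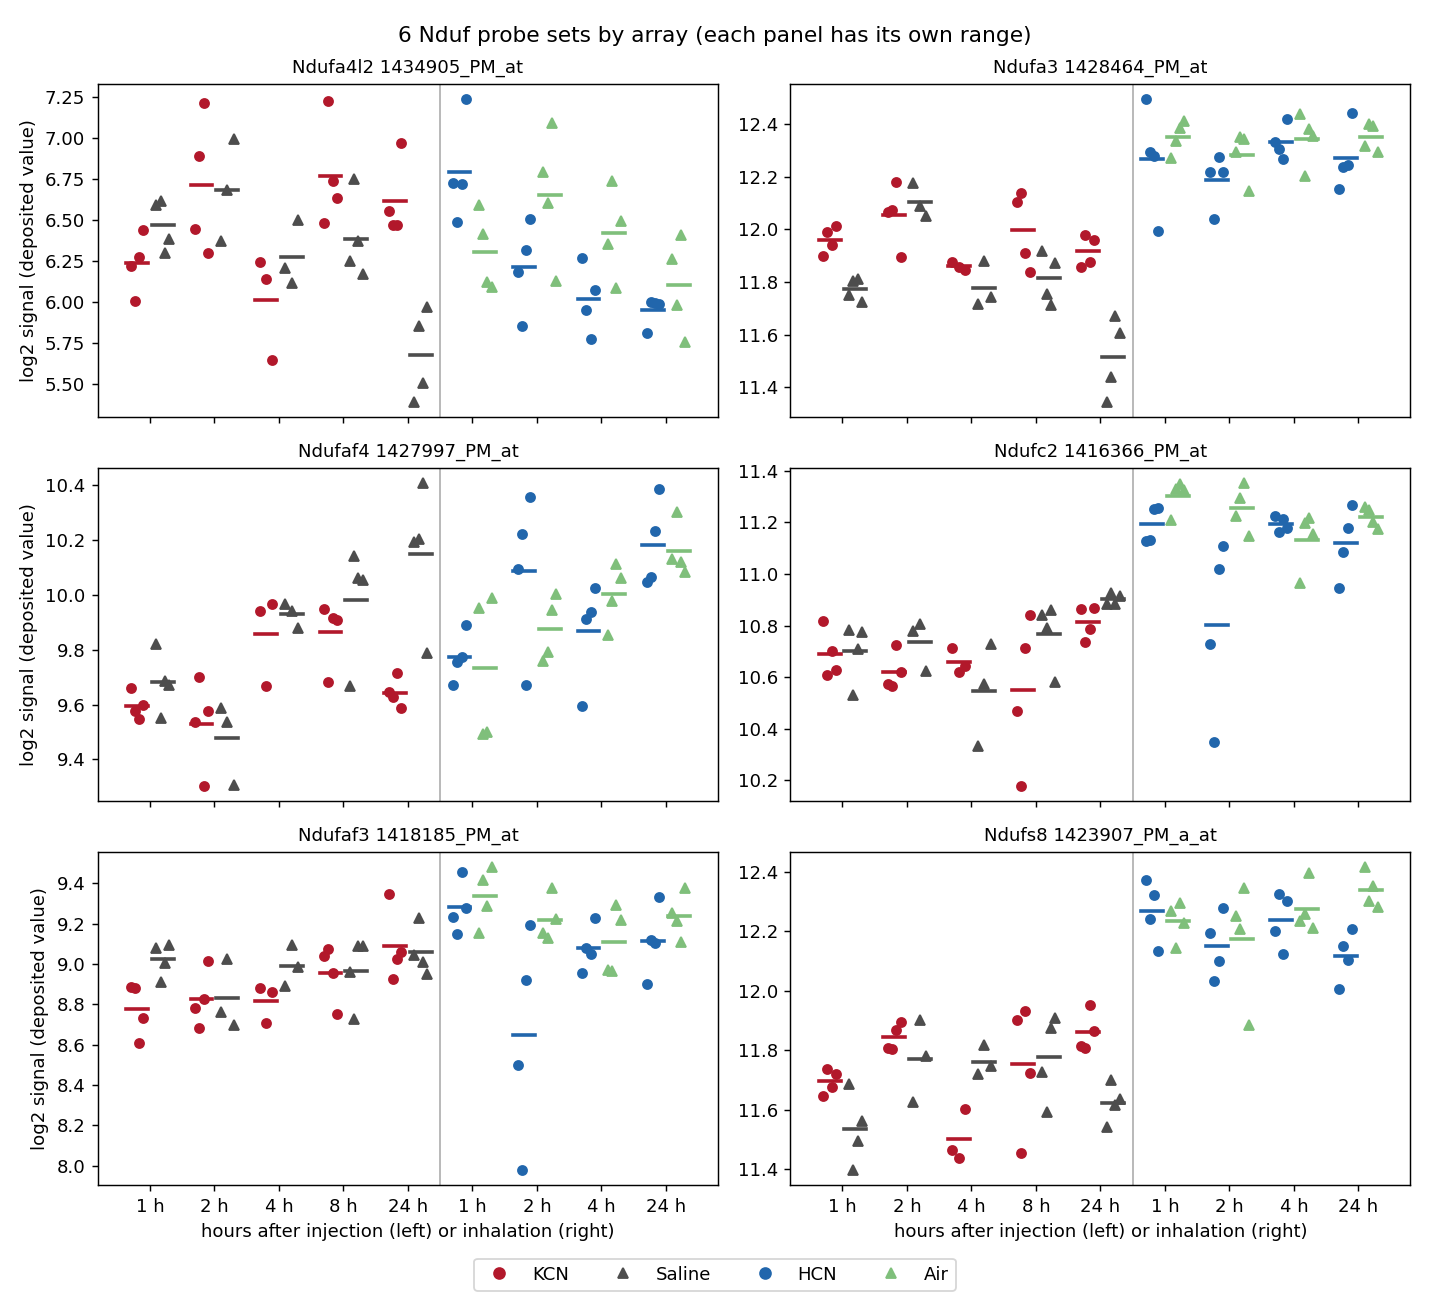
Log2 signal of 6 Nduf probe sets on each array (points) with group means (bars), by hours after KCN or saline injection and after HCN or air inhalation, each panel with its own range. Ndufa4l2 and Ndufa3 are lowest in Saline 24 h hearts, Ndufaf4 is high there, and Ndufc2 and Ndufaf3 spread widely in HCN 2 h hearts.

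The 22 genes with at least 2 tested probe sets allow a check of agreement. All tested probe sets of a gene had the same sign in 8 of 22 genes at HCN 2 h, the lowest count, and in 17 of 22 at HCN 1 h, the highest. The same count over all genes of the array is not given here. At HCN 2 h 3 genes had 2 or more probe sets called in one direction (Ndufa7 and Ndufa11 lower, Ndufa12 higher), and 3 genes had probe sets called in both directions (Ndufb5, Ndufb7 and Ndufb11). Ndufb5 was the widest: its second probe set, 1417102_PM_a_at, read 12.71, 12.68, 12.48 and 12.53 in HCN hearts, against 12.32, 12.25, 12.37 and 11.99 in Air hearts (0.37 ± 0.08 SE, adjusted p = 0.000489), while 1448589_PM_at fell as given above. Ndufb11 was called both ways at KCN 24 h too, at -0.16 on 1416056_PM_a_at (adjusted p = 0.0399) and 0.17 on 1416057_PM_at (adjusted p = 0.00659). The first of these calls was kept only without KCN 24 h replicate 3 or Saline 24 h replicate 3 or 4.

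Each array's value of a probe set minus the mean of the other tested probe sets of its gene was then tested in the same way, which asks whether probe sets of one gene changed unequally. In a gene with 2 tested probe sets these differences are mirror images. A single disagreement can thus count as 2 probe sets, among the members and among all. Of 52 Nduf probe sets, 33 were called in at least 1 of the 9 comparisons, where 61.3% of 12361 such probe sets were called. They belonged to 16 of 22 genes, where 3403 of all 4876 genes tested in this way had a call. By time, the Nduf counts were 6 at KCN 1 h (6.17% of all), 2 at KCN 2 h (9.21%), 2 at KCN 4 h (2.51%), 0 at KCN 8 h (0.291%) and 11 at KCN 24 h (8.75%). After HCN they were 0 at 1 h (1.25% of all), 24 at 2 h (31.5%), 0 at 4 h (1.33%) and 3 at 24 h, all of Ndufab1, where 35.6% of all were called. The count over the 9 comparisons was 19 with the actin covariate and 19 without HCN 2 h replicates 1 and 2.

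The unequal changes at HCN 2 h went with the kind of probe set, a split seen after the values were known and given without a test. In the manufacturer's naming, a name that ends in a_at marks a set that binds several transcripts of one gene, and a plain _at name a set unique to one. In 11 genes with both kinds, forming 12 pairs, the a_at set changed more upward than the plain set in 12 of 12 pairs at HCN 2 h, with medians of 0.14 and -0.25. The a_at set of Ndufs8 is in 2 of the pairs, once with the dim 1434212_PM_at (mean 4.39 in HCN 2 h hearts). The split is not given here for all genes, where 31.5% of within-gene differences were called at HCN 2 h. It therefore cannot be called particular to the Nduf genes. Measured per array against the Air 2 h mean, the median excess of the a_at set was 0.41, 0.62, 0.21 and 0.21 in HCN 2 h replicates 1 to 4, and between -0.06 and 0.04 in the Air 2 h arrays. The 2 arrays with the largest excess are the 2 with the highest actin difference. In the other HCN comparisons the a_at set changed more upward in 5 of 12 pairs at 1 h, 11 of 12 at 4 h (median excess 0.097) and 8 of 12 at 24 h (median excess 0.10). After KCN it did so in 4 of 12 pairs at 1 h, 10 at 2 h (median excess 0.14), 2 at 4 h, 3 at 8 h and 3 at 24 h. The split was thus also seen where the actin difference was close in both groups: it was 0.41 ± 0.04 in HCN 4 h hearts and 0.40 ± 0.04 in Air 4 h hearts (SD, n = 4 each), and 0.47 ± 0.08 in KCN 2 h hearts (n = 4) and 0.42 ± 0.08 in Saline 2 h hearts (n = 3). The part of RNA integrity in the split was not tested.

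**Figure D5:**
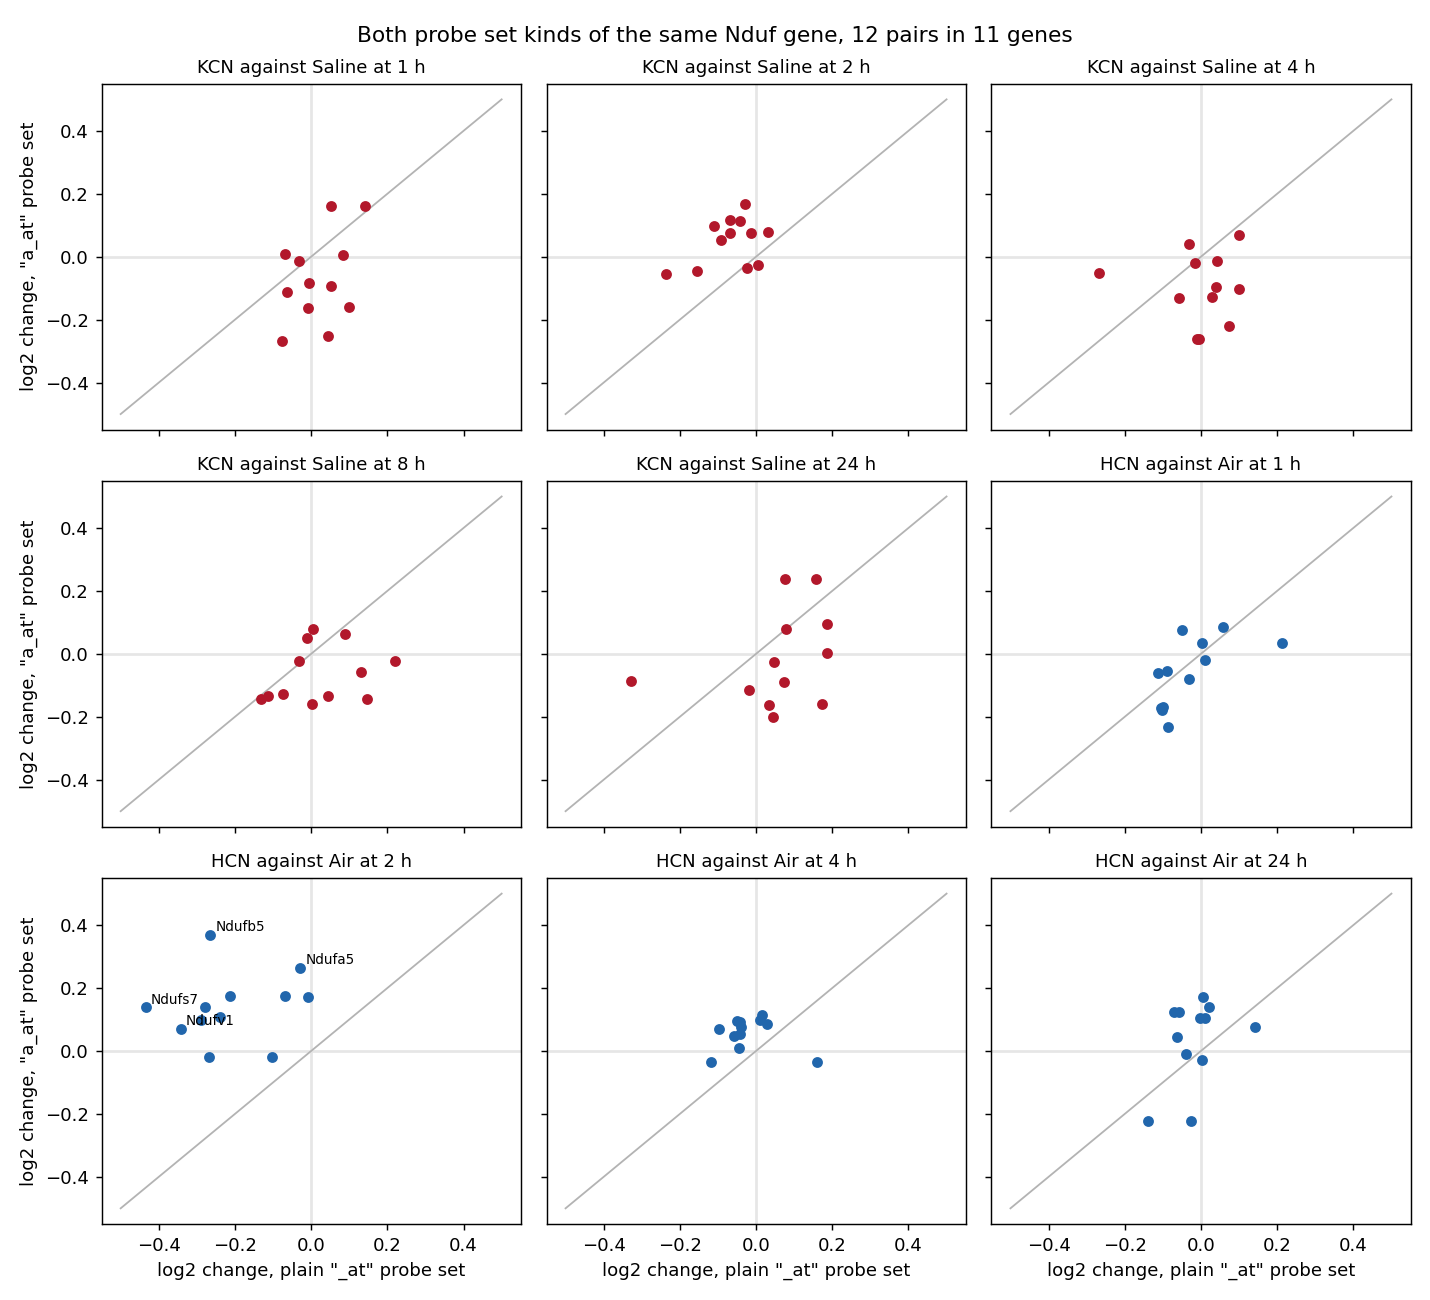
Log2 change of the a_at probe set (vertical) against that of the plain _at probe set (horizontal) of the same gene, for 12 pairs in 11 Nduf genes, in 9 comparisons, with the line of equal change in grey. At HCN 2 h all 12 points lie above the line, with 4 genes named, and in the other panels points lie on both sides.

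The routes were compared directly by the difference of their changes, HCN against air minus KCN against saline, at the 4 shared times. At 1 h 1 member was called (Ndufab1), where 0.198% of all probe sets were. At 2 h 7 were called, where 5.74% of all were, and this was 4 with the actin covariate and 0 without HCN 2 h replicates 1 and 2. At 4 h none was called, where 1.87% of all were, and 6 had an unadjusted p below 0.05 by limma, a cut at which the share of all is not given here. At 24 h 13 of 72 were called, 8 with the higher change after HCN and 5 with the higher change after KCN, where 18.8% of all were.

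Control hearts also differed between the harvest times. The actin difference of the saline groups differed between them too (0.84, 0.42, 0.86, 0.45 and 0.88 at 1, 2, 4, 8 and 24 h), and its part was not tested. Among the saline groups 33 of 72 members differed over the 5 times, where 38.4% of all probe sets did, and among the air groups 12 of 72 differed over the 4 times, where 16.8% of all did.

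Genes of complex I that carry other names were read from a list of 20 assembly factors and subunits, of which 12 had tested probe sets (17 in all). At HCN 2 h 8 of 17 fell and none rose, where 16.5% of all probe sets fell and 8.8% rose, among them Acad9 and Ecsit, which build the membrane arm, and Foxred1, an assembly oxidoreductase. The median change of the 17 was -0.32, against -0.05 for the Nduf members. At HCN 4 h 2 fell (Lyrm2 and Tmem126b; 4.48% of all), at KCN 2 h 1 fell (Timmdc1; 3.3% of all), and at KCN 24 h 1 rose (Dmac1; 6.79% of all) and 1 fell (Tmem70; 5.14% of all), with none in the other 5 comparisons.

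Promoters of the members are shown for 3 genes, chosen because each holds one of the searched motifs of a factor known to act on mitochondrial genes and was called above. The sequences are RefSeq's (GRCm38.p6), 250 bases before to 50 after the gene's start, and 36 of the 42 genes matched, with 38 promoters. Capitals mark the motif, searched on both strands: CGCATGCG, the core of the NRF-1 motif, in Ndufaf4; TNAAGGTCA, an ERR motif, in Ndufb4; and CCGGAAG, an ETS motif, in Ndufs8.
Ndufaf4, chr4:24897833-24898132, plus strand: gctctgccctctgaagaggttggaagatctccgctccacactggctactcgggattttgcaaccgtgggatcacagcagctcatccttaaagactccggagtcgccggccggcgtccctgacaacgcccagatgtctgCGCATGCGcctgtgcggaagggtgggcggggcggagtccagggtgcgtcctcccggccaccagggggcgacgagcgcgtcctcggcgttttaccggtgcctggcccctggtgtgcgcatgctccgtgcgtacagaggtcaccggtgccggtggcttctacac
Ndufb4, chr16:37654319-37654618, minus strand: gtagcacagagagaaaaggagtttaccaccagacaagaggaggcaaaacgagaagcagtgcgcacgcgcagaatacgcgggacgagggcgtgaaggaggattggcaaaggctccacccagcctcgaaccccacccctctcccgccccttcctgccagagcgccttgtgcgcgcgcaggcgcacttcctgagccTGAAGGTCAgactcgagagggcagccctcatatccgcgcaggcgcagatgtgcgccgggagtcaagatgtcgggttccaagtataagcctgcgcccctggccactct
Ndufs8, chr19:3912725-3913024, minus strand: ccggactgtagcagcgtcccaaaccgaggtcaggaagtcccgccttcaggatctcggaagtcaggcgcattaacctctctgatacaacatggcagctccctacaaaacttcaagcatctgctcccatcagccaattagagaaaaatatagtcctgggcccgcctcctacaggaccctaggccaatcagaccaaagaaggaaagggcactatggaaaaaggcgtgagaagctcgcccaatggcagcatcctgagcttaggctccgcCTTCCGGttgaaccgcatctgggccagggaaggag
The NRF-1 core stood in 4 of the 38 Nduf promoters (10.5%) and in 1.87% of all 32851 promoters, the ERR motif in 1 (2.63%) and 1.28% of all, and the ETS motif in 5 (13.2%) and 8.86% of all. The 4 genes with the NRF-1 core did not change as one: at HCN 2 h Ndufa8 changed by -0.28 and Ndufa11 by -0.20 (1429708_PM_at), both called, while Ndufaf5 changed by 0.08 (adjusted p = 0.607) and Ndufaf4 was called at KCN 24 h and in no other of the 9 comparisons. A motif match is a description of the letters in this window and no evidence of binding.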

How the data were processed

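The deposited values are log2 signals per probe set of an Affymetrix mouse array from the authors' series table (lowest 1.83, highest 13.9). MAS5 is named in the submitters' processing notes with no version or role, and the steps before deposit, summarisation and normalization included, were not given in the sources used here. Total RNA of 69 hearts was hybridised, and the number of arrays limits the precision. Control probe sets (104) were left out, and probe sets whose highest group mean was above the median of all group means (3.23) were tested. Changes were fitted over all 18 groups with limma 3.58.1 in R 4.3.3 (trended empirical Bayes), adjusted by Benjamini-Hochberg over 26755 probe sets. The fit was tested on simulated data. The platform annotation named the genes, and probe sets with several symbols were not members. The members and lists were chosen with earlier results of these data known. The text names, for each comparison, up to 4 largest rises and 4 largest falls among called members with every exposed array on one side of the control mean, genes with 2 or more probe sets called in one direction, the probe sets of largest difference within a gene, and a fixed list of core, accessory and assembly genes. The member Ndufa8 and some smaller calls were chosen after their values were seen. Replicate numbers did not pair arrays: 9 of 34 same-numbered pairs correlated above 0.1 (-0.14 to 0.32). Alternatives were quantile normalization, median centring, no filter, a replicate block, an actin 3′ to 5′ covariate, fits of only the groups compared, and each array left out; leaving out HCN 2 h replicates 1 and 2 was added after seeing the data.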

Additional observations from a re-analysis of the deposited data

Results flagged for a closer look

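In groups of 4 arrays, 4 of 79 checks found 1 array standing far from the other 3, and chance alone gives about 1 in 20. They are Ndufv2 1452692_PM_a_at in Air 2 h replicate 2 (11.954, the others 12.056 to 12.063), Ndufab1 1428160_PM_at in HCN 1 h replicate 1 (5.73, the others 6.66 to 6.82), Ndufa12 1418814_PM_s_at in Air 24 h replicate 1 (12.227, the others 12.162 to 12.172), and the median level of the members in HCN 1 h replicate 3 (11.834, the others 11.731 to 11.74).

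The test of the difference between routes, HCN against air minus KCN against saline, singled out 21 values with an adjusted p below 0.05 by limma. At 1 h it was 1.91 for Ndufab1 1428160_PM_at. At 2 h it was positive for Ndufs5-ps 1416495_PM_s_at (0.37) and Ndufa12 1418814_PM_s_at (0.30). It was negative for Ndufs7 1451312_PM_at (-0.34), Ndufv1 1415967_PM_at (-0.32), Ndufb5 1448589_PM_at (-0.30), Ndufc1 1416285_PM_at (-0.25) and Ndufb11 1416057_PM_at (-0.24). At 24 h it was 3.71 for Ndufab1 1428160_PM_at, 0.53 for Ndufaf4 on both 1435333_PM_at and 1427997_PM_at, 0.37 for Ndufa12 1455806_PM_x_at, 0.36 for Ndufab1 1447919_PM_x_at, 0.26 for Ndufb11 1416056_PM_a_at, 0.26 for Ndufv2 1452692_PM_a_at and 0.19 for Ndufb11 1455911_PM_x_at. It was -1.09 for Ndufa4l2, -0.48 and -0.37 for the Ndufa3 probe sets, -0.46 for Ndufs8 1423907_PM_a_at and -0.31 for Ndufa12 1418814_PM_s_at. The saline and air groups differ in route as well as agent, and these cannot be told apart.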

How the results depend on the processing

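Of the 61 calls on single probe sets, 54 were kept under quantile normalization, 51 under median centring, 47 without the filter, 61 with a replicate block, 20 with the actin covariate and 21 when only the groups compared were fitted; leaving out 1 array kept 350 of 480. With the replicate numbers as a block, the HCN 24 h count was 5, against 4 without it, and the block changed no other count by over 1.5 times. With the actin covariate at HCN 2 h, 4 values turned positive: Ndufb2 1416834_PM_x_at (0.054), Ndufs8 1423908_PM_at (0.0258), and Ndufa7 1428360_PM_x_at (0.0255) and 1436567_PM_a_at (0.0379). That covariate gave counts of 7 at HCN 2 h, 2 at HCN 24 h, 1 in the HCN average, 4 and 4 for the route difference at 2 and 24 h, 19 over time in air, and 19 for unequal changes within genes. Without HCN 2 h replicates 1 and 2 the counts were 8 at HCN 2 h, 6 in the HCN average, 0 for the route difference at 2 h and 19 within genes. Fitting only the groups compared gave 6 at HCN 2 h, 1 at HCN 1 h, 1 at HCN 4 h, 0 at KCN 2 h, 0 at KCN 4 h and 0 for the route difference at 2 h, with fewer arrays behind each spread. Without the filter the counts were 2 at HCN 24 h, 1 at KCN 2 h and 1 at KCN 4 h, with more probe sets adjusted for. The cause of none of these shifts was tested.

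Leaving out 1 array gave 3 to 5 calls at KCN 1 h, 0 to 2 at 2 h, 0 to 3 at 4 h, 0 to 2 at 8 h and 7 to 11 at 24 h; 0 to 2 at HCN 1 h, 19 to 36 at 2 h, 0 at 4 h and 0 to 6 at 24 h. The averages gave 5 to 9 (KCN) and 10 to 18 (HCN), the route differences 1 at 1 h, 2 to 11 at 2 h, 0 at 4 h and 8 to 20 at 24 h, the control series 29 to 34 (saline) and 8 to 15 (air), and unequal changes within genes 25 to 35. The HCN 24 h count was 0 without HCN 24 h replicate 1. For none of the alternative fits is the share of all probe sets called given here. The median change of the members stayed within -0.07 and 0.07 in every setting, and one value per gene, from the brightest probe set or the median of its probe sets, gave medians between -0.06 and 0.02. No scaling moved the median of all probe sets by over 0.1.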
